A study of Cynara cardunculus with 36 samples.

Results

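Runs of neighbouring gene models whose RNA moved the same way during cold storage were followed in hearts of globe artichoke, the tender inner part of the flower head. The change of a gene model was its log2 CPM (CPM, counts per 1000000 reads in gene models, with a prior count of 2 added before the logarithm) at day 14 minus that at day 0, averaged over 4 cultivars. Gene models were placed in the order of their IDs within the 17 numbered groups that the IDs carry. A run was a stretch of 3 or more successive gene models, among those that passed the read filter, that all changed by at least 2 or all by at most -2. This gave 230 members in 70 runs among 21989 gene models kept and 28632 listed. There were 138 members in 41 rising runs and 92 members in 29 falling runs.

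The hearts were of Green Queen (GQ), Green Globe Improved (GGI), Imperial Star (IS) and Opal (OP), the 4 cultivars compared. Each was sampled before cold storage (day 0) and after 7 and 14 days of it, with 3 biological replicates for each combination and 36 libraries in all. Every plant had been field grown with a gibberellin (GA) treatment to bring flowering forward, and all heads spent 48 h at 4 °C before day 0, so that no group was free of GA or of cold. The samples are described as a series on browning, the darkening of the cut or stored head. RNA was extracted from the whole heart tissue, and fewer cells of a type and less RNA per cell cannot be told apart in such bulk samples. The gene models carry no names, so the tissue was not checked against marker genes, and no pathway list, protein role or sequence of a member is given here. Levels in CPM are not corrected for gene length and are compared only within a gene model.

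In plant genomes, genes that lie next to each other are often copies made by tandem duplication, and such copies can keep similar promoters and be switched on together. Neighbours can also share a stretch of open or closed chromatin, and in some plants the enzymes of 1 specialised pathway lie in a cluster and are expressed as a unit. Unrelated neighbours can likewise move in the same direction when many genes of a genome change at the same time. Which of these holds for any run was not tested.

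Some libraries stood apart. Reads in gene models numbered 5.76 to 54.5 M (mega) per library. Reads outside gene models were 9.39% to 16.0% of those listed in 32 libraries, and were higher in 4 libraries of day 7: 71.0% (OP replicate 1), 33.5% (GGI replicate 2), 31.6% (GQ replicate 2) and 30.1% (GQ replicate 3). At day 14 the library labelled GGI replicate 1 was in the GQ state for 91 of 99 gene models that separated these cultivars at day 0, and the library labelled GQ replicate 1 was in the GGI state for 71 of 99. Library numbers followed the day of storage, so library order and day cannot be told apart. For day 7 against day 0 and for cultivar differences, counts of members called are also given without the first 4 libraries. Some are given without all 6. Leaving out the 4 leaves GQ at day 7 with replicate 1 only. In the 39 members of the 10 runs described, it both ended and added calls in the comparisons with day 7. Calls of a cultivar difference in the day 14 change and at day 0 were only added. The share of all gene models called for a day 14 difference also rose, so these shifts are not read as a trait of the runs.

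The runs were spread over 15 of the 17 numbered groups, with none in groups 11 and 14. Group 1 held 37 members and group 13 held 26, and the densest was group 9, where members were 2.38% of the gene models kept. Most runs were short. Among rising runs, 31 had 3 members, 5 had 4 and 5 had 5; among falling runs, 24 had 3 members and 5 had 4. Changes past the threshold were common in the whole table, at 8.4% of gene models kept for a change of at least 2 and 9.51% for a change of at most -2. Most gene models past the threshold stood alone or in pairs, since another 1710 rose and 2000 fell outside any run. Within the numbered groups these formed 1328 rising singles, 185 rising pairs, 1590 falling singles and 200 falling pairs, and members made up 5.87% of all gene models past the threshold there.

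**Figure D1:**
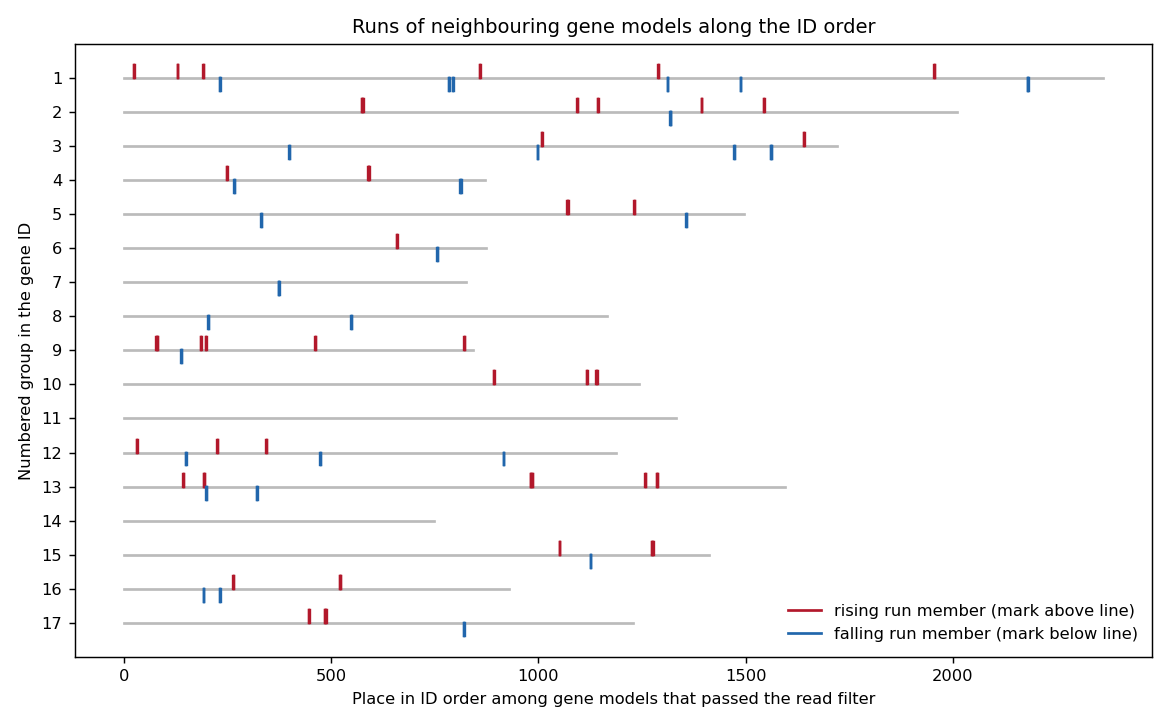
Position of the 230 run members in the ID order. Each grey line is 1 numbered group and its length is the number of gene models kept (x axis, place in ID order; y axis, group number); marks above the line are rising members and marks below it are falling members. Groups 11 and 14 hold none, and the marks of both directions lie among each other in most groups.

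IDs were consecutive within most runs. In 24 of 41 rising runs and 18 of 29 falling runs no listed ID was skipped between the first and the last member. In the others, gene models that failed the read filter lay between members. The rule itself required the gene model next to a run to miss the threshold in the direction of the run. Of the 82 gene models flanking the rising runs, 48 changed in the same sign, 17 of them by 1 to 2, and 8 (9.76%) were past the threshold in the opposite sign, where 9.51% of all gene models kept fell that far. Of the 58 flanking the falling runs, 30 changed in the same sign and 5 (8.62%) were past the threshold in the opposite sign, where 8.4% of all gene models kept rose that far. In group 13, a rising run of 4 and a falling run of 3 were separated by 1 gene model, and another 2 rising runs of 3 in the same group were also separated by 1. Every other pair of neighbouring runs had at least 7 gene models between them.

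The values that chose the members are a description. The median change at day 14 was 3.49 (log2 scale) over the 138 rising members and -3.10 over the 92 falling members, beside -0.03 over all gene models kept. With the 9 rising members that had 0 reads in the 12 day 0 libraries set at the bound that 3 counts over those libraries allow, the rising median was 3.64. The rising members just inside the threshold had changes of 2.02 and 2.03 and the nearest gene models outside had 1.998 and 1.9977; the falling members nearest to it had -2.004 and -2.07 and the nearest outside had -1.9997. As a share of reads in gene models, the rising members held a median of 0.221% per library at day 0, 0.682% at day 7 and 1.62% at day 14. The falling members held 0.571%, 0.241% and 0.0394%. The rising share at day 14, from 1.07% to 2.08%, did not overlap that at day 0, from 0.109% to 0.332%, which the choice of members fixes.

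Cultivar by cultivar, these values again describe what the rule selected on. The run median was past the threshold in all 4 cultivars in 26 of 41 rising and 21 of 29 falling runs, in 3 cultivars in another 10 and 7, and no run had a cultivar whose median went against its direction. The median was 0, however, in OP in a rising run of 3 in group 6 and in IS in a rising run of 3 in group 3. Single members were less even. All 4 cultivars were past the threshold in 66 of 138 rising and 46 of 92 falling members, and 12 rising and 2 falling members had a cultivar that went the other way. In the fit across all gene models, 132 of 138 rising members were called higher at day 14 than at day 0, where 30.4% of all gene models were called higher, and 92 of 92 falling members were called lower, where 29% were. Nothing is read from these counts, since the rule used the same contrast. In 7 rising and 5 falling members, more than 50% of the CPM summed over the libraries of the higher day came from 1 library.

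The longest rising run with the largest mean change had 5 members in group 15, from V2_15g015430.1.01 to V2_15g015490.1.01, with 2 listed IDs skipped. Its 5 members started at levels that differed by cultivar, changed in different directions by cultivar up to day 7 and were high in every cultivar at day 14. At day 0, V2_15g015430.1.01 stood at 13.8, 5.93 and 109 CPM in the 3 OP libraries and at 34.1, 48.0 and 128 CPM in GQ. It stood at only 2.17, 0.282 and 0.149 CPM in IS and at 0.661, 0.311 and 0.942 CPM in GGI. The lowest OP or GQ library was thus above the highest IS or GGI library.

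At day 7 this order was gone. V2_15g015430.1.01 read 0, 2.61 and 7.25 CPM in OP and 23.2, 2.13 and 9.24 CPM in GQ, while it read 32.9, 0.494 and 89.1 CPM in IS and 13.1, 7.52 and 11.9 CPM in GGI. All 3 OP libraries lay below the higher 2 of day 0, every GGI library had more than at day 0, and IS replicate 2 remained within the IS day 0 range. At day 14 the values were 137, 68.0 and 110 CPM in OP, 138, 91.5 and 49.98 CPM in IS, 944, 343 and 92.9 CPM in GGI and 242, 218 and 884 CPM in GQ. The 4 cultivars overlapped at that day. The highest GGI value belongs to the library with crossed markers.

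The other 4 members of the run in group 15 followed the same course at their own levels. The fifth, V2_15g015490.1.01, was low in all cultivars at day 0, with 0.668, 1.75 and 2.79 CPM in OP, 0.157, 0.0201 and 0.0248 CPM in IS, 0.0228, 0.0778 and 0.544 CPM in GGI and 1.06, 1.27 and 2.36 CPM in GQ. At day 7 it read 28.8, 0.0618 and 61.7 CPM in IS and 6.77, 3.73 and 3.26 CPM in GGI. It read 0, 0.0404 and 1.19 CPM in OP and 0.512, 0.426 and 0.652 CPM in GQ. At day 14 it lay between 119 CPM and 938 CPM in all 12 libraries. Its change at day 14 was the largest of the run, 9.35 ± 0.42 (log2 scale, SE from the spread within cultivar and day), and those of the other 4 were 5.29 ± 0.55, 4.57 ± 0.62, 4.54 ± 0.65 and 4.55 ± 0.53 in ID order.

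**Figure D2:**
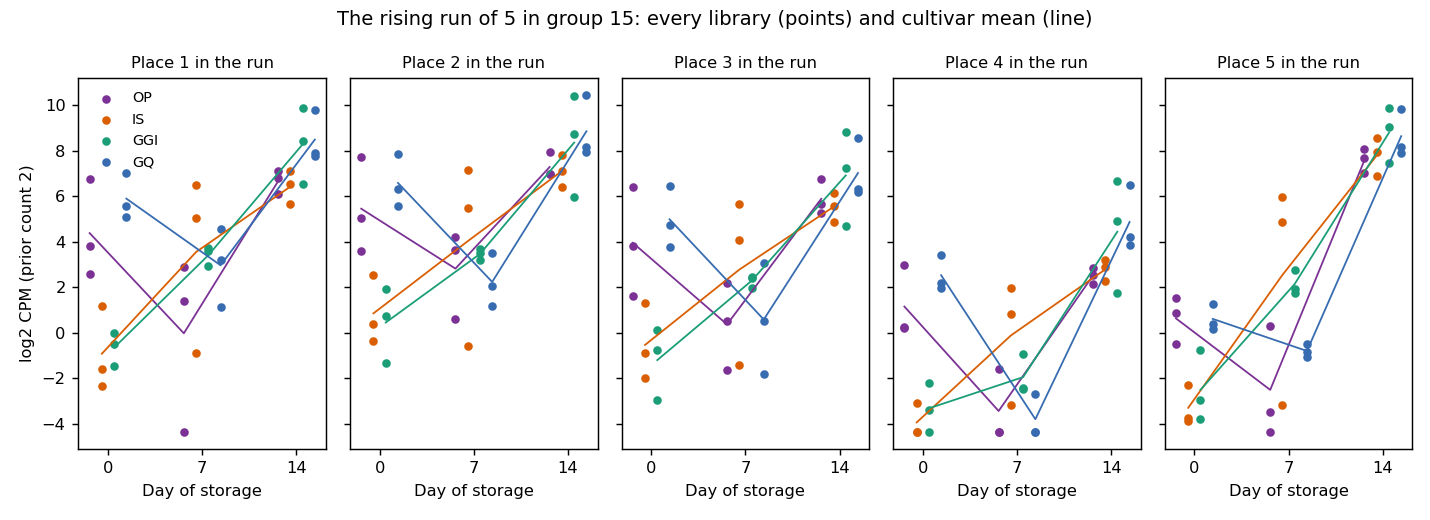
The 5 members of the rising run in group 15 in all 36 libraries. Each panel is 1 member in ID order; the x axis is the day of storage, the y axis log2 CPM, points are libraries and lines join the cultivar means. OP and GQ lie above IS and GGI at day 0, fall to day 7 and rise to day 14, while IS and GGI rise at both steps.

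The rule averaged over cultivars, so the difference between cultivars was open to a test. The day 7 change differed between cultivars in all 5 members of the run (F test over the 4 cultivars, edgeR quasi-likelihood, adjusted p = 0.0014, 0.00291, 0.0034, 0.000537 and 0.000677 in ID order). The median of the 5 day 7 changes was 3.83 in IS and 3.49 in GGI, against -3.59 in OP and -4.36 in GQ. Without the 4 libraries high in reads outside gene models the adjusted p-values lay between 0.00727 and 0.0289. The levels at day 0 also differed between cultivars in all 5 (adjusted p = 0.00102, 0.00339, 0.00439, 0.000623 and 0.0369). For the fifth member this held in 28 of 36 fits with 1 library left out, and the libraries that lost it were all of day 0 (adjusted p up to 0.118, without IS replicate 2). The day 14 change differed between cultivars in the first and the fourth members (adjusted p = 0.0222 and 0.013), where it was 7.35 and 6.73 in IS and 8.94 and 7.77 in GGI, against 2.28 and 1.36 in OP and 2.60 and 2.34 in GQ. In the other 3 it was not called, with adjusted p = 0.0536, 0.0569 and 0.167. The second and the third members were called without the 4 libraries (adjusted p = 0.0327 and 0.0245) and with DESeq2 (0.00195 and 0.00308), and were not called without all 6 libraries that stood apart (0.0889 and 0.0691). The call of the first member was lost (adjusted p up to 0.0571) without any 1 of OP day 0 replicate 3, GGI day 0 replicates 1 and 2, OP day 14 replicate 2 and GGI day 14 replicate 1.

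Averaged over cultivars, V2_15g015490.1.01 was called higher at day 7 (edgeR quasi-likelihood, adjusted p = 0.0027), with a mean log2 change of 1.49 ± 0.87. The p-value comes from the fit to counts and does not test this mean against its SE. Its adjusted p was 0.246 without OP day 7 replicate 3. The other 4 were not called, with changes from -1.43 to 0.30. This contrast uses the same day 0 libraries as the rule. From day 7 to day 14 all 5 were called higher, by 4.77 to 7.87 (log2 scale), a contrast that uses the same day 14 libraries as the rule. Across the 12 libraries of a day, after the cultivar means were taken out, the levels of the 5 members went up and down together. The median Pearson r over the 10 pairs of members was 0.910 at day 0, 0.839 at day 7 and 0.963 at day 14, as a description over libraries that the pairs share.

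The second rising run had 5 members in group 17 and was made of 2 unlike stretches. Its first member was higher in all cultivars at day 14, going from 1.97 to 23.5 CPM (median 4.93) in the day 0 libraries to 92.9 to 1082 CPM (median 182) at day 14, without overlap. At day 7 it read 42.7, 66.1 and 37.2 CPM in OP, 264, 29.6 and 233 CPM in IS and 336, 20.5 and 116 CPM in GGI, but 1.73, 1.37 and 7.34 CPM in GQ. The day 7 change of that member averaged 2.70 ± 0.49 (adjusted p = 7.13e-06) and differed between cultivars (adjusted p = 0.0221), a call lost without GQ day 0 replicate 3 or without GQ day 7 replicate 2 (adjusted p up to 0.0682). The second member rose with it, by 2.29 ± 0.70 at day 7 (adjusted p = 7.07e-05) and by 6.01 ± 0.38 at day 14.

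The last 3 members of the run in group 17 were hardly read at all before day 14. They had 2, 0 and 0 reads over the 12 day 0 libraries, where 0 reads allow up to 0.00656 CPM, and 10, 16 and 21 reads at day 7. At day 14, the third member read 6.87, 29.6 and 3.46 CPM in OP and at most 0.237 CPM in any other library. The fourth read 3.903, 12.1 and 1.90 CPM in OP and at most 0.373 CPM elsewhere, and the fifth read 7.96, 26.6 and 3.76 CPM in OP and at most 0.398 CPM elsewhere. OP day 14 replicate 2 alone gave 72.4%, 64.6% and 67.6% of their summed day 14 CPM. The difference between cultivars in the day 14 change was not called in any of the 3, with adjusted p = 0.266, 1 and 1. The fourth and the fifth had 0 reads at day 0 and so no level to measure a change from. The test could not call a difference in them, and it says little for the third, with 2 reads. It does not show that the cultivars were alike.

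The third rising run, of 5 members in group 4, spanned 11 listed IDs. Its first, second and last members were higher in all cultivars at day 14, with average changes of 3.74 ± 0.24, 4.38 ± 0.17 and 2.52 ± 0.21. The third and the fourth had 0 and 26 reads over the day 0 libraries. At day 14 the fourth read 48.5, 12.8 and 6.23 CPM in GGI and 14.0, 7.76 and 52.1 CPM in GQ, above the 0.0312, 0.0859 and 3.34 CPM of OP and the 0.783, 0.674 and 0.203 CPM of IS. The third read 0.503 to 12.2 CPM in GGI and GQ and at most 0.542 CPM in OP and IS, with a slight overlap. Neither was called for a difference between cultivars at day 14 (adjusted p = 1 and 0.611). The third, with 0 reads at day 0, could not be called by this test. At day 7 the first and second members were called higher (adjusted p = 5.25e-05 and 2.18e-05). The fifth was not (adjusted p = 0.0667), but was when the 4 day 7 libraries that stood apart were left out (0.0202). In the fifth the day 7 change differed between cultivars (adjusted p = 0.00228). That member read 14.1, 4.00 and 20.3 CPM in IS and 30.1, 12.9 and 18.1 CPM in GGI at day 7, against 2.21, 8.83 and 5.95 CPM in OP and 6.58, 4.54 and 3.48 CPM in GQ.

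The longest falling run with the largest mean change had 4 members with consecutive IDs in group 7, from V2_07g004260.1.01 to V2_07g004290.1.01. All 4 were lower in every cultivar at day 14, and on average fell by 3.51 ± 0.21, 2.37 ± 0.25, 3.74 ± 0.32 and 4.41 ± 0.35 on the log2 scale. V2_07g004260.1.01 went from 27.9 to 110 CPM (median 62.8) at day 0 through 10.9 to 61.1 CPM (median 29.3) at day 7 to 2.06 to 10.1 CPM (median 5.98) at day 14. V2_07g004290.1.01 went from 1.59 to 7.33 CPM (median 5.75) through 0 to 11.4 CPM (median 2.29) to at most 0.608 CPM (median 0.185). The day 14 values of both lay below every day 0 value, and the day 7 values overlapped those of day 0.

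The members of this run differed in when they fell. By day 7, the third had a change of -3.59 ± 0.54 (adjusted p = 1.27e-05), nearly its whole day 14 change, whereas the second had -0.26 ± 0.24 (adjusted p = 0.73). V2_07g004260.1.01 and V2_07g004290.1.01 lay between, at -1.13 ± 0.26 (adjusted p = 0.00104) and -1.40 ± 0.54 (adjusted p = 0.0297). The last value missed the threshold without the 4 libraries high in reads outside gene models (adjusted p = 0.0507), and also without any 1 of OP day 0 replicate 1, IS day 0 replicate 2, GQ day 0 replicate 2, IS day 7 replicate 3 and GGI day 7 replicate 1 (adjusted p up to 0.0532). The third member read 346, 141 and 283 CPM in IS at day 0 and 1.81, 50.4 and 3.68 CPM there at day 7, and 44.9, 73.1 and 22.3 CPM in GQ at day 0 and 38.1, 47.6 and 15.1 CPM there at day 7. Its day 7 change differed between cultivars (adjusted p = 0.0297), a call that held in 30 of 36 fits with 1 library left out and was lost in the other 6, which left out GGI day 0 replicate 1, GGI day 7 replicates 1 and 3, GQ day 0 replicates 1 and 3 or GQ day 7 replicate 2 (adjusted p up to 0.0767). The other 3 were not called for such a difference.

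In the falling run of 4 in group 2, the third and the fourth members were called lower at day 7 (adjusted p = 0.00763 and 0.0127, and 0.0147 and 0.00968 with the 4 day 7 libraries that stood apart left out), and the first was not (adjusted p = 0.0736). The third member, at 140 to 1211 CPM (median 502) at day 0, lay at 60.4 to 583 CPM (median 136) at day 7 and 6.07 to 74.9 CPM (median 23.7) at day 14. Its second member was not called at day 7 on average (change 0.24 ± 0.44, adjusted p = 0.419). That member read 37.8, 454 and 171 CPM in GQ at day 7 against 19.1, 40.9 and 14.2 CPM in GQ at day 0, whereas IS went from 44.9, 131 and 110 CPM to 9.99, 82.9 and 12.5 CPM. The day 7 change differed between cultivars in the second and the third members (adjusted p = 0.0469 and 0.0342), and in neither without the 4 libraries high in reads outside gene models (adjusted p = 0.218 and 0.352), of which 2 are the GQ libraries with the highest values. With 1 library left out in turn, the 2 calls held in 11 and 28 of 36 fits.

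The falling run of 4 in group 1 lay at low levels and had no member whose change differed between cultivars at day 7 or day 14. Its changes at day 14 were -2.18 ± 0.19, -2.998 ± 0.39, -3.51 ± 0.36 and -4.06 ± 0.40. The second and the fourth members were lower at day 7 (adjusted p = 0.00307 and 0.00164), by 1.64 and 2.56 on the log2 scale; the first and the third were not called (adjusted p = 0.729 and 0.163). The fourth fell from 0.739 to 3.77 CPM (median 2.08) at day 0 to at most 0.241 CPM (median 0.0276) at day 14.

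**Figure D3:**
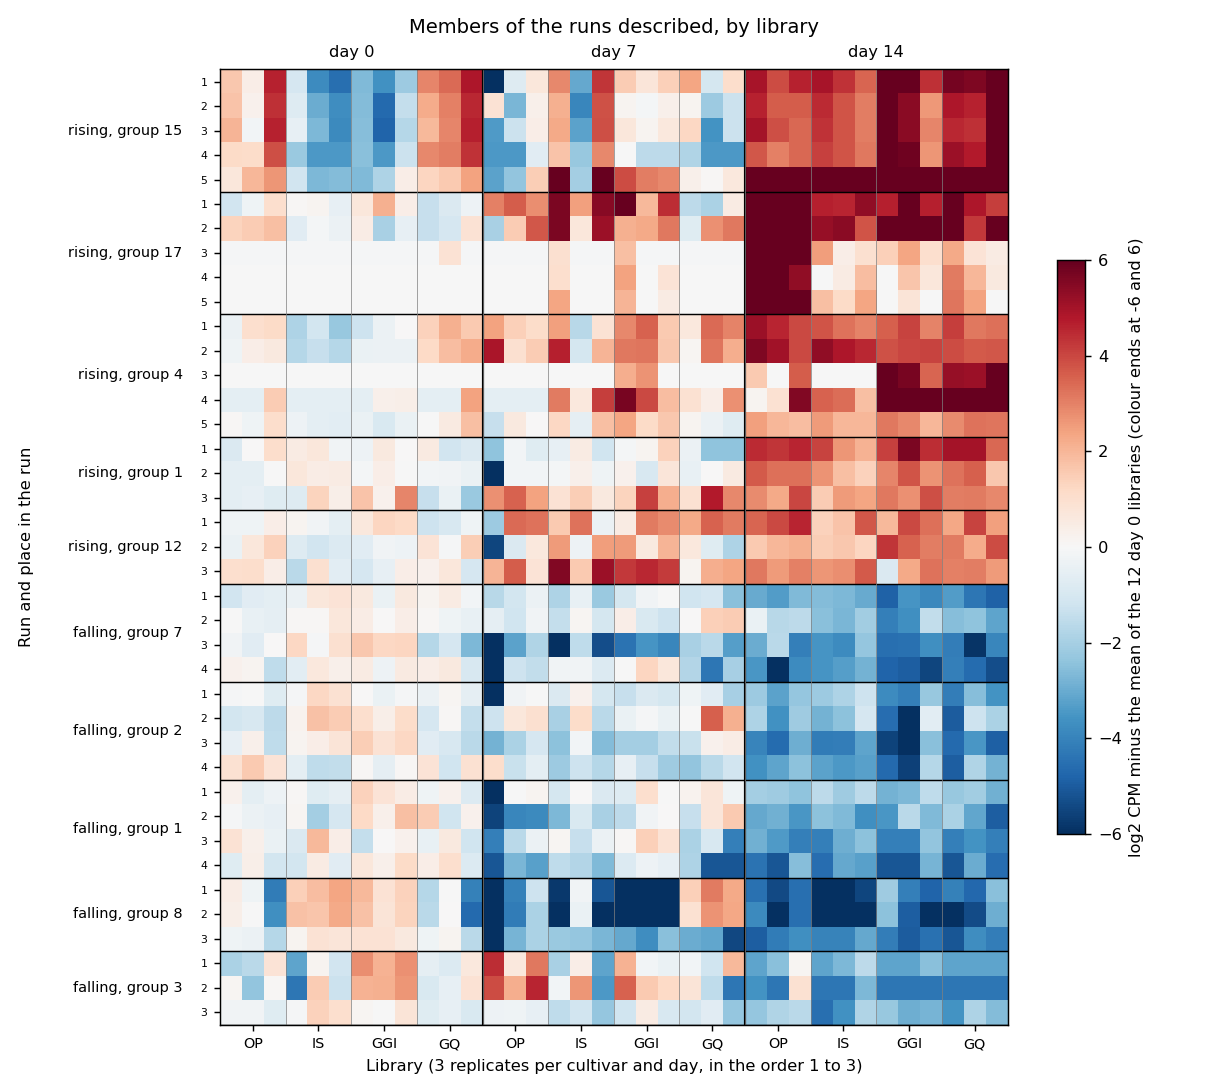
Members of the 10 runs described by rule, in all 36 libraries. Rows are members by place in the run, columns are libraries by day and cultivar, and colour is log2 CPM minus the mean of the 12 day 0 libraries (red higher, blue lower, colours end at -6 and 6). The day 14 columns are red in rising and blue in falling runs; the day 7 columns differ between cultivars, and IS replicate 2 differs from IS replicates 1 and 3.

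At day 7 the runs had moved only part of the way. The comparison of day 7 with day 0 asks how much of the change was present after the first week. It shares its day 0 libraries with the rule, and so does not stand apart from the selection. The median change at day 7 was 0.76 over the rising members and -0.85 over the falling members (log2 scale), beside -0.16 over all gene models kept. As a share of each member's day 14 change, the median was 17% for rising members and 32.0% for falling members. Gene models past the threshold outside runs had medians of 24.9% and 37.6%. The day 7 change had the direction of the day 14 change in 112 of 138 rising members, where 41.4% of all gene models changed upward, and in 79 of 92 falling members, where 58.6% changed downward.

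At day 7, 98 of 230 members were called in the direction of their run and 1 against it. By edgeR's quasi-likelihood test with Benjamini-Hochberg adjustment, 58 of 138 rising members (42%) were called higher at day 7 than at day 0, where 19.9% of all gene models were. None was called lower. In the 9 rising members with 0 reads at day 0 this test had no day 0 level, so a missing call says little. Of the falling members, 40 of 92 (43.5%) were called lower, where 17.5% of all gene models were, and 1 was called higher. Gene models of the same direction outside runs were called at 53.8% and 42.2%, so that a share above that of all gene models was also seen without a run. Without the 4 libraries high in reads outside gene models, 95 members in place of 98 were called, of which 78 were shared. The share of all gene models in that setting is not given here.

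A whole run was seldom called at day 7. All members were called in 3 rising runs, of 3 members each in groups 1, 9 and 13, and in 3 falling runs, of 3 members each, with 2 in group 8 and 1 in group 13. These 6 were picked out after their values were seen. Leaving out the 4 libraries high in reads outside gene models leaves GQ at day 7 with replicate 1 only. Other runs were called throughout in that fit alone, so whole-run calls were gained as well as lost. Of these 6, those in groups 8 and 9 were still called throughout. In the rising run in group 1 the second and the third members then had adjusted p = 0.0963 and 0.665, in the rising run in group 13 the third had 0.0691, and in the falling run in group 13 the first had 0.11. All 3 calls of the rising run in group 1 were also lost without OP day 7 replicate 1 alone (adjusted p = 0.122, 0.0521 and 0.236). In the rising run in group 13 the first member held in 20 of 36 fits with 1 library left out, and the third had adjusted p = 1 without OP day 7 replicate 3. No member was called in 8 rising and 8 falling runs. DESeq2 called some members at day 7 that edgeR did not. In the rising run of 5 in group 4, the DESeq2 adjusted p was 0.00584 for the fourth member and 0.585 for the third. Neither was called by edgeR, so a missing call does not show that a member had not moved. From day 7 to day 14, 114 of 138 rising members were called higher, where 29.1% of all gene models were, and 86 of 92 falling members were called lower, where 28.3% were. All members of a run were called in that second step in 23 rising and 23 falling runs. It shares its day 14 libraries with the rule.

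**Figure D4:**
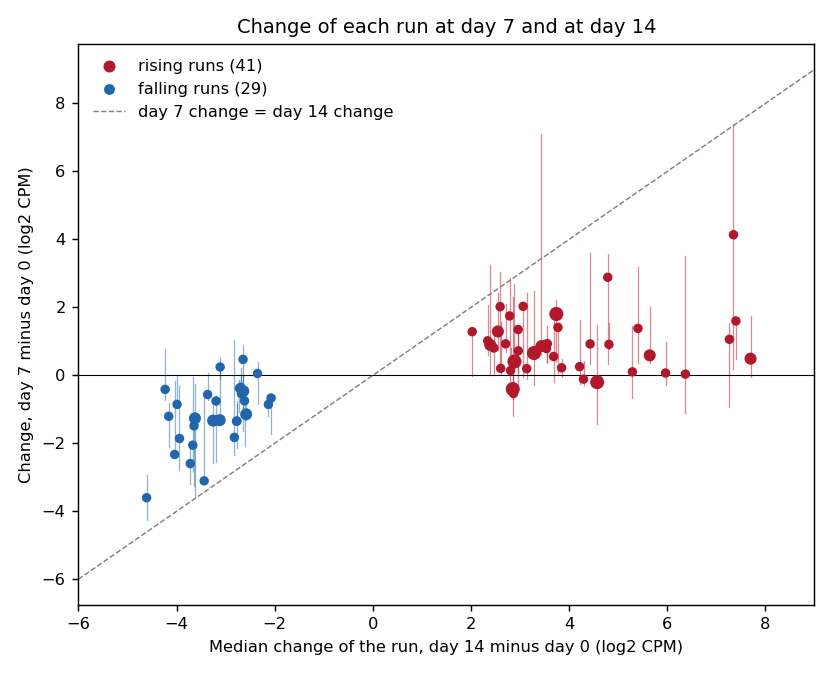
Change of each run at day 7 against its change at day 14. Each point is the median of a run's members (x axis, day 14 minus day 0; y axis, day 7 minus day 0, both in log2 CPM), the vertical line spans its members, and larger points are longer runs; 41 rising runs are red and 29 falling runs blue. Most points lie between 0 and the dashed line of equal change.

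The rising run with the largest day 7 share by its median had 3 members in group 12 and reached 65.7% of its day 14 change. The third member was higher at day 7 than in any day 14 library of the same cultivar in 2 of 3 IS libraries and in 3 of 3 GGI libraries. It read 496, 31.8 and 377 CPM in IS and 199, 247 and 194 CPM in GGI at day 7, from 3.45, 20.6 and 6.73 CPM and 5.22, 7.61 and 13.8 CPM at day 0, and ended at 66.8, 73.0 and 135 CPM and 5.70, 50.8 and 100.6 CPM at day 14. The average day 7 change was 3.04 ± 0.49 (adjusted p = 3.11e-06) and differed between cultivars with an adjusted p of 0.0479, which was 0.083 without the 4 libraries high in reads outside gene models and held in 7 of 36 fits with 1 library left out. The first member also rose by day 7, by 2.02 ± 0.59 (adjusted p = 3.75e-05). The second did not pass (adjusted p = 0.0946, and 0.0071 without the 4 libraries), but its day 7 change differed between cultivars (adjusted p = 0.00487): it read 12.8, 1.71 and 12.1 CPM in IS and at most 3.27 CPM in OP and GQ.

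The rising run with the smallest share, of 3 members in group 1, had a median day 7 change of -0.53 and a median day 14 change of 2.87. Its median day 7 change was -0.054 without the 4 libraries, and another run of 3 in group 1, at -0.30, then had the smallest share. Its first 2 members were not called at day 7, with changes of -0.69 ± 0.36 and -0.53 ± 0.52 (adjusted p = 0.275 and 0.847), and the third had risen by 2.31 ± 0.46 (adjusted p = 2.84e-05). The third member read 7.17, 12.45 and 5.74 CPM in OP at day 7 from 0.668, 0.715 and 0.597 CPM at day 0, and 1.94, 29.2 and 7.83 CPM in GQ from 0.367, 0.779 and 0.180 CPM. Its IS values overlapped those at day 0, with 1.91, 2.90 and 1.55 CPM at day 7 against 0.582, 2.62 and 1.34 CPM. Its day 7 change differed between cultivars (adjusted p = 0.0118).

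The falling run with the largest day 7 share, of 3 members with consecutive IDs in group 8, had reached 71.5% of its change. Its first 2 members moved in opposite directions in different cultivars. The second read 349, 330 and 505 CPM in IS and 356, 180 and 266 CPM in GGI at day 0, and 1.13, 78.3 and 0.796 CPM and 0.0948, 0.209 and 0.400 CPM there at day 7. In GQ it went from 34.2, 105 and 4.07 CPM at day 0 up to 198, 670 and 516 CPM at day 7, with no overlap, and then to 0.672, 2.47 and 13.8 CPM at day 14. The first member did the same, with 11.9, 38.6 and 21.8 CPM in GQ at day 7 against 1.33, 4.36 and 0.225 CPM at day 0. The day 7 change differed between cultivars in both (adjusted p = 0.00154 and 0.00468), also without the 4 libraries high in reads outside gene models (adjusted p = 0.0148 and 0.0321), where GQ is left with replicate 1.

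The third member of that run did not share this. It was lower in all 4 cultivars at day 7, in GQ going from 55.0, 74.7 and 21.6 CPM to 8.35, 7.76 and 1.47 CPM, and the average change was -3.60 ± 0.74 (adjusted p = 6.33e-07). Its day 7 change was not called for a difference between cultivars (adjusted p = 0.54). All 3 members were called lower at day 7 on average over cultivars (adjusted p = 0.00125 and 0.00133 for the first 2); in the first 2 that average includes the rise in GQ. By day 14 none of the 3 was called for a difference between cultivars (adjusted p = 0.167, 0.249 and 0.674).

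The falling run with the smallest share, of 3 members in group 3, had a median day 7 change of 0.47 against -2.64 at day 14. This median was 0.24 without the 4 libraries, and a run of 3 in group 6, at 0.36, then had the smallest share. The second member read 14.6, 4.33 and 23.0 CPM in OP at day 7 against 0.991, 0.138 and 0.973 CPM at day 0, and 0.0312, 0 and 1.81 CPM at day 14. It was not called at day 7 on average (adjusted p = 0.208), and neither was the first (adjusted p = 0.386). The third fell by 0.98 at day 7 on the log2 scale (adjusted p = 0.0116). The 1 falling member called higher at day 7 was the second of 3 in another run in group 1, chosen here after its values were seen. In OP it went from 6.36, 8.46 and 3.09 CPM to 473, 122 and 58.7 CPM (average change 1.03 ± 0.49, adjusted p = 0.00732). The adjusted p was 0.942 without the 4 libraries high in reads outside gene models, 1 of which gave the highest value.

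The cultivars differed in how far the runs had moved at day 7. The median day 7 change over the rising members was 1.70 in IS and 1.43 in GGI, and 0 in OP and GQ. Over the falling members it was -1.57 in IS, -1.22 in GGI, -1.18 in OP and -0.10 in GQ. Over all gene models kept, the medians were 0, 0.01, -0.24 and -0.24 in IS, GGI, OP and GQ. Without the 4 libraries high in reads outside gene models the rising medians were 1.72, 1.34, 0.05 and -0.004 in the same order, and the falling medians were -1.58, -1.26, -0.71 and -0.17. By day 14 the rising medians were 3.46 in IS, 4.21 in GGI, 3.35 in OP and 3.71 in GQ.

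The F test of cultivar differences in the day 7 change, which the rule did not use, called 35 of 138 rising and 20 of 92 falling members, or 23.9% of all members, where 24.2% of all gene models were called. Gene models past the threshold outside runs were called at 34.6% and 20.8%. The members' count was thus near that of the table as a whole. Without the 4 libraries, 53 members were called and 35 of them were shared. The share of all gene models called in that setting is not given here, so the 53 are not read as a trait of the members. Members called lay in 39 of the 70 runs, but 2 or more of a run were called in only 13, and the run of 5 in group 15 was the only one called throughout.

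Single day 7 libraries also differed within a cultivar. Against the IS mean at day 0, the median difference of the rising members was 2.37 in IS replicate 1 and 2.28 in IS replicate 3 but 0.23 in IS replicate 2. For the falling members it was -2.12, -1.94 and -0.89. Of the 3 IS libraries, replicate 2 was the lowest in 101 of 138 rising members and the highest in 70 of 92 falling members. In this library reads outside gene models were 13.3%, within the range of the 32 others. Leaving it out gave 104 members called at day 7 and 73 called for a difference between cultivars at day 7, in place of 98 and 55. Shares of all gene models without this library are not given here, so these counts are not read as a trait of the members.

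**Figure D5:**
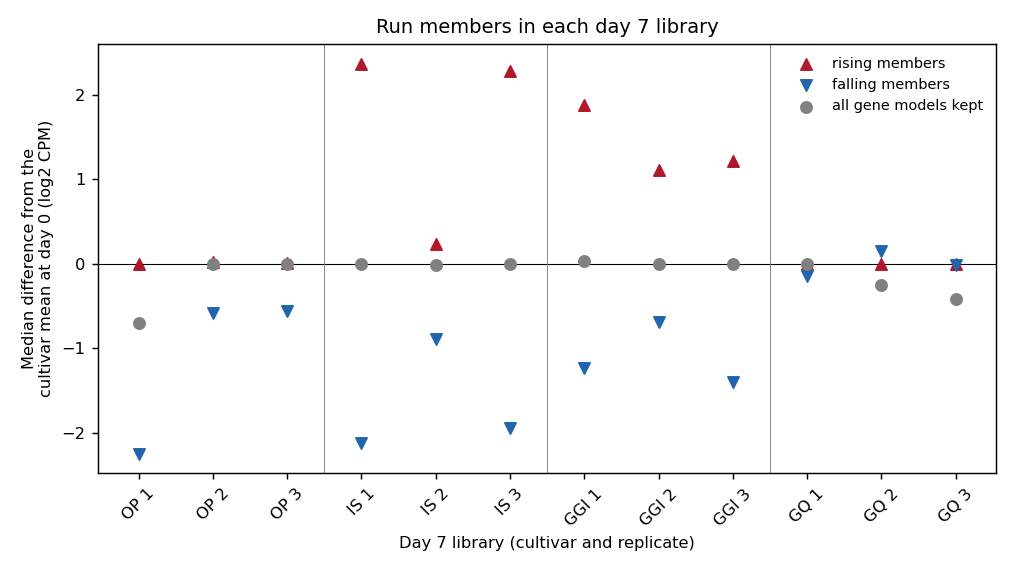
Run members in the 12 day 7 libraries. The x axis gives cultivar and replicate; the y axis gives the median, over the 138 rising members (red), the 92 falling members (blue) and all gene models kept (grey), of log2 CPM minus the mean of that cultivar's day 0 libraries. Red points reach 1.11 to 2.37 in the GGI libraries and IS replicates 1 and 3, and lie between 0 and 0.23 in IS replicate 2 and in the OP and GQ libraries.

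Few members were called for a difference between cultivars at day 14. Of the members, 8 of 138 rising and 4 of 92 falling were called for a cultivar difference in the day 14 change, or 5.22% of all members, where 3.12% of all gene models were called. For the 9 rising members with 0 reads at day 0 the test had no day 0 level, so it could not call a difference. Gene models past the threshold outside runs were called at 8.83% and 1.65%. The count depended on which libraries were in the fit. It was 43 without the 4 libraries high in reads outside gene models, where 19.9% of all gene models were called, and 34 without these and the 2 with crossed markers. It was 27, 22 and 20 without GGI day 14 replicate 3, OP day 7 replicate 1 and IS day 7 replicate 2 in turn. Outside the setting with 43, the shares of all gene models called are not given here. The 12 members lay in 10 runs, and only the run in group 15 and the falling run of 3 in group 1 with the opposite member held 2.

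In that falling run of 3 in group 1, the second and the third members kept reads in OP at day 14. The third read 26.4, 64.9 and 48.5 CPM in GGI at day 0 and 0.151, 0 and 0.140 CPM there at day 14, but 4.26, 8.21 and 3.65 CPM in OP at day 0 and 2.94, 2.52 and 1.75 CPM at day 14. The difference in the day 14 change was called in both (adjusted p = 0.0159 and 0.0168), with 0.0518 for the second without GGI day 14 replicate 1, the library with crossed markers. The first member was not called (adjusted p = 1).

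Before storage, the cultivars already differed in some of the runs. The F test at day 0 called 32 of 138 rising and 9 of 92 falling members, or 17.8% of all members, where 14.2% of all gene models were called. Gene models past the threshold outside runs were called at 24.5% and 13.4%. Of the 41 members called, GQ had the highest mean in 18 and IS the lowest in 22. How often this held among all gene models called at day 0 is not given here, so it is not read as a trait of the runs. Without the 4 day 7 libraries, which enter through the shared spread, 64 members were called, and 75 without all 6. Without IS day 0 replicate 2, and likewise without IS day 0 replicate 3, 27 were called. The shares of all gene models called in these settings are not given here, so the counts are not read as a trait of the members.

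All members of a run were called at day 0 in 3 runs, named after their values were seen: the run of 5 in group 15, a rising run of 4 in group 13 and a falling run of 3 in group 5. In the run in group 13, the fourth member read 5.05, 6.00 and 29.1 CPM in OP and 10.7, 16.2 and 98.1 CPM in GQ at day 0, above the 0.448, 0.161 and 0.0248 CPM of IS and the 0.752, 2.08 and 3.43 CPM of GGI (adjusted p = 0.00127). Its first 3 members were highest in OP, the first at 81.7, 23.8 and 105 CPM there against 5.21 to 31.6 CPM elsewhere, with an overlap, (adjusted p = 0.00415). The second had an adjusted p of 0.0395, which held in 25 of 36 fits with 1 library left out and was 0.178 without OP day 0 replicate 3. In the falling run in group 5, IS was highest, in the third member at 2.08, 5.70 and 1.17 CPM against at most 0.507 CPM in the others (adjusted p = 0.0105). The 3 calls in group 5 were lost without IS day 0 replicate 2, with adjusted p = 0.267, 0.635 and 0.166, and held in 11, 21 and 35 of 36 fits with 1 library left out.

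Pairs of members of the same run had a higher median correlation between replicates than other pairs, with a wide spread. The rule did not use this measure, since it read only means over cultivars and days. Levels were centred on the mean of each cultivar and day, and Pearson r was taken over the 12 libraries of a day. At day 7 the median r over 272 pairs from the same run was 0.351. It was 0.18 over pairs of members from different runs of the same direction and 0.116 over all adjacent gene models in the table. At day 0 the 3 medians were 0.448, 0.16 and 0.0407, and at day 14 they were 0.451, 0.223 and 0.0697. The day 14 medians include the libraries with crossed markers, centred by their labels, and were not taken without them. All pairs share the same 12 libraries, and no test was made.

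The spread among pairs was wide. Of the same-run pairs at day 7, 25.7% had r below 0 and 11.8% had r over 0.8. The run median was over 0.5 in 15 of 70 runs at day 7, 26 at day 0 and 24 at day 14, and below 0 in 18, 20 and 18. It was over 0.5 on all 3 days in 2 runs, the run of 5 in group 15 and a rising run of 3 in group 6. Members next to each other had a median of 0.359 at day 7 and members farther apart in a run 0.342. The run medians of the first 2 falling runs described, in groups 7 and 2, were 0.286 and 0.234 at day 7.

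The co-variation at day 7 moved with single libraries. Without IS day 7 replicate 2 the same-run median was 0.221, beside 0.0534 for different runs and 0.121 for adjacent gene models. When the 4 libraries high in reads outside gene models were left out instead, over 8 libraries, it was 0.619, beside 0.37 for different runs and 0.0855 for adjacent gene models. With all 12 libraries, pairs from different runs had a higher median than adjacent gene models of the whole table on each of the 3 days, and without IS day 7 replicate 2 a lower one at day 7. Runs with no skipped ID and runs with skipped IDs had medians of 0.339 and 0.356 at day 7 and 0.521 and 0.271 at day 0.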

How the data were processed

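The authors deposited 1 table per library with whole-number counts of reads for 28632 gene models and 5 summary rows, which were left out. The summary rows held 13.9% to 85.2% of the reads listed (median 16.0%). The tools cutadapt and STAR are named, with no version or role, per the submitters' processing notes. How reads were counted, on which build and annotation and whether by strand, is not given in the sources used here, so counts of near-identical or overlapping gene models are uncertain, which matters for neighbours that may be copies. Of the IDs, 0 matched the RefSeq table of CcrdV1.1 (30275 genes), so names, positions and sequences are not used here. The order of the IDs was taken as the order of the gene models and was not checked against coordinates.

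The members, tests and descriptions were chosen with earlier results of these data known. Groups came from the sample titles. No pair of replicates agreed within sampling noise (lowest chi-square per degree of freedom 53.1 over 36 pairs). Depth was 5.76 to 54.5 M reads in gene models per library, and floors of 3 counts cover counting error only. The replicates are called biological in the labels, and p-values reflect the spread among libraries.

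Gene models with at least 10 reads in at least 3 libraries were kept. Log2 CPM used TMM scaling and a prior count of 2. With size factors of the RLE kind the median day 14 change of all gene models moved by -0.103; all 230 members kept their sign and 132 of 138 rising and 92 of 92 falling members stayed past the threshold. The fit was edgeR 4.0.16 (glmQLFit, robust, glmQLFTest; limma 3.58.1, R 4.3.3) on all 36 libraries with a mean per cultivar and day, biological coefficient of variation 0.506, and calls at a Benjamini-Hochberg adjusted p under 0.05 over all gene models kept. DESeq2 1.42.0 was an alternative. Changes printed with ± are differences of mean log2 CPM, whereas the p-values beside them come from the edgeR fit to counts. Such a p-value does not test the printed change against its SE. The runs described are the 3 of each direction that come first by length and then by mean change, and those with the largest and smallest day 7 share in each direction; only the first and last IDs of the leading run of each direction are printed.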

Additional observations from a re-analysis of the deposited data

Results flagged for a closer look

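In the runs described, 17 changes at day 7 or day 14 differed between cultivars by the F test (edgeR quasi-likelihood, adjusted over all gene models), and the values by cultivar are given above. In the rising run of 5 in group 15, the day 14 change differed in the first and the fourth members (adjusted p = 0.0222 and 0.013). The day 7 change differed in all 5 members (adjusted p = 0.0014, 0.00291, 0.0034, 0.000537 and 0.000677), up in IS and GGI and down in OP and GQ. In the other rising runs the day 7 change differed in the first member in group 17 (adjusted p = 0.0221), the fifth in group 4 (0.00228), the second and the third in group 12 (0.00487 and 0.0479) and the third in group 1 (0.0118). In the falling runs it differed in the third member in group 7 (0.0297), the second and the third in group 2 (0.0469 and 0.0342) and the first and second in group 8 (0.00154 and 0.00468).

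Reads outside the gene models, which enter no comparison, were high in 4 libraries of day 7: 71.0% (OP replicate 1), 33.5% (GGI replicate 2), 31.6% (GQ replicate 2) and 30.1% (GQ replicate 3). The 12 day 0 libraries held 9.65% to 13.7%.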

How the results depend on the processing

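The counts of members called at day 14 against day 0 (221 to 230), day 7 against day 0 (91 to 114) and day 14 against day 7 (194 to 206) stayed within 1.5 times of 224, 98 and 200 under all 43 alternatives each. The count for cultivar differences in the day 14 change was 12, and 42 with DESeq2, 43 without the 4 libraries high in reads outside gene models, 34 without all 6 doubtful libraries, and 8 to 27 without single libraries. For the day 7 change it was 55, and 84 with DESeq2 and 37 to 73 without single libraries. At day 0 it was 41, and 64 with DESeq2, 64 without the 4 libraries, 75 without the 6, and 27 to 51 without single libraries. Apart from the 43, the share of all gene models called is not given for these alternatives. The counts are thus not read as a trait of the members. The cause was not tested.

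The rule gave 230 members, 151 when only consecutive listed IDs counted as neighbours, 585 at a threshold of 1.5 and 123 at 2.5, by construction; 336 with a prior count of 0.5, 176 with 5, 171 without the read filter, 241 with RLE (122 rising and 119 falling, against 138 and 92), and 221 to 279 without single libraries. The same-run r at day 7 was 0.351, and 0.277 by Spearman's rho, 0.619 without the 4 libraries and 0.221 to 0.401 without single libraries. For the 4 gene models named by ID, 836 of 860 values stayed on their side of the threshold and 0 reversed.

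The correlation of same-numbered deviations had a median of 0.00111 and ran from -0.531 to 0.632 over 198 pairs (43 over 0.1). Differently numbered libraries were not compared, so whether replicate numbers pair the samples was not settled. With the replicate block the 6 counts were 224, 97, 200, 13, 53 and 37. Shares of all gene models called in that fit are not given here, so these counts are not read as a trait of the members.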
